A study of Arabidopsis thaliana with 2 samples.

Results

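The chloroplast ribosome of leaves is built from RNAs and some proteins made inside the plastid and from a larger number of proteins encoded in the nucleus, translated in the cytosol and imported. The 38 genes described here are nuclear genes of Arabidopsis thaliana (thale cress) for proteins of that ribosome, 13 of its small (30S) and 25 of its large (50S) subunit. They were taken as a list of loci named for this ribosome, drawn up with earlier results of these data known, and are 38 of the 27336 loci listed for both libraries. Each of the 38 had enough reads to be compared.

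The plastid ribosome is of the bacterial type, and most of its proteins carry the names of their bacterial counterparts (S and L for the small and large subunit, here RPS and RPL). It makes the plastid-encoded cores of the photosystems, the large subunit of Rubisco and parts of the ATP synthase, so that greening leaves depend on it. A few further proteins, called plastid-specific ribosomal proteins (PSRP), were first found in chloroplast ribosomes.

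Leaves were taken from the line atpip1;2-1 (the mutant), named for the gene of PIP1;2, a water channel of the plasma membrane also studied as a path for carbon dioxide, and from wildtype plants, both of the Columbia ecotype. All plants were 3 weeks old and grown on soil with 12 h of light a day, and each genotype gave 1 library of transcript 3' ends made from the leaves of 10 plants. The mutant is represented by 1 line, and no second allele or rescued line was analysed here. The comparison asks which leaf transcripts differ when this aquaporin is low.

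The atpip1;2-1 library held 4041759 reads and the wildtype library 4079098. PIP1;2 (AT2G45960) had 566 reads in atpip1;2-1 and 4211 in the wildtype, which left 12.9% of the wildtype level (95% counting interval 11.8% to 14.1%). Markers of leaf mesophyll were abundant in both libraries, with 294929 reads for 6 genes in atpip1;2-1 and 317415 in the wildtype. The seed marker CRA1 and the floral gene AP3 had 0 reads in both, which allows up to 0.724 CPM in atpip1;2-1 and 0.754 CPM in the wildtype. With 1 library per genotype there is no replicate check: each difference below is between these 2 libraries, and every interval (95%) covers counting error only. CPM values are read counts scaled to the effective size of each library. Log2 ratios are atpip1;2-1 over wildtype, so that a negative one means fewer reads in atpip1;2-1.

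Reads for the plastid ribosomal proteins were lower in the mutant for 37 of the 38 genes, by 12.5% to 39.6%. The exception was PSRP1, a relative of the bacterial factors that park idle ribosomes. Summed over the 38 genes, 57042 reads (13774 CPM) were counted in the mutant and 72324 (18167 CPM) in the wildtype, or 75.8% of the wildtype level (log2 ratio -0.40, -0.42 to -0.38). The genes took 1.41% of all reads in the mutant and 1.77% in the wildtype. Their median log2 ratio was -0.43, against -0.00 over the 15111 loci tested and -0.14 over the 1102 loci with at least 966 reads, the fewest of any of the 38. In bulk leaves, fewer cells of a type and less RNA per cell cannot be told apart.

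The decrease was small for each gene. At 2-fold or more, with an adjusted p under 0.05 in the exact binomial test of reads, 0 of the 38 genes were lower and 0 were higher. Among all loci tested 1.1% were lower by that rule and 1.3% were higher, and among the 1102 loci with at least 966 reads 0.635% were lower and 0.363% higher. At 1.5-fold or more, 3 of the 38 were lower (7.89%) and 0 higher, where 3.96% of all loci tested were lower and 3.28% higher. Among the 1102 loci with at least 966 reads the share lower at 1.5-fold was 13.4% and the share higher 2.99%, so the count of 3 does not exceed this background. With no fold threshold, a rule added after the values had been seen, 37 were lower and 1 higher. By that rule 8.38% of all loci tested were lower and 5.74% higher, and among the 1102 deeply read loci 46.8% were lower and 18.7% higher. Of those 1102 loci, 24.2% had a log2 ratio at or below the median of the plastid ribosomal proteins. Reads of a deeply counted gene can thus differ beyond counting error at a small ratio, and when a biological coefficient of variation of 0.2 was assumed in edgeR's exact test, 0 of the 38 genes were lower and 0 higher. That test called only 3 of the 15111 loci lower and 15 higher, so its counts of 0 are not particular to these genes.

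**Figure D1:**
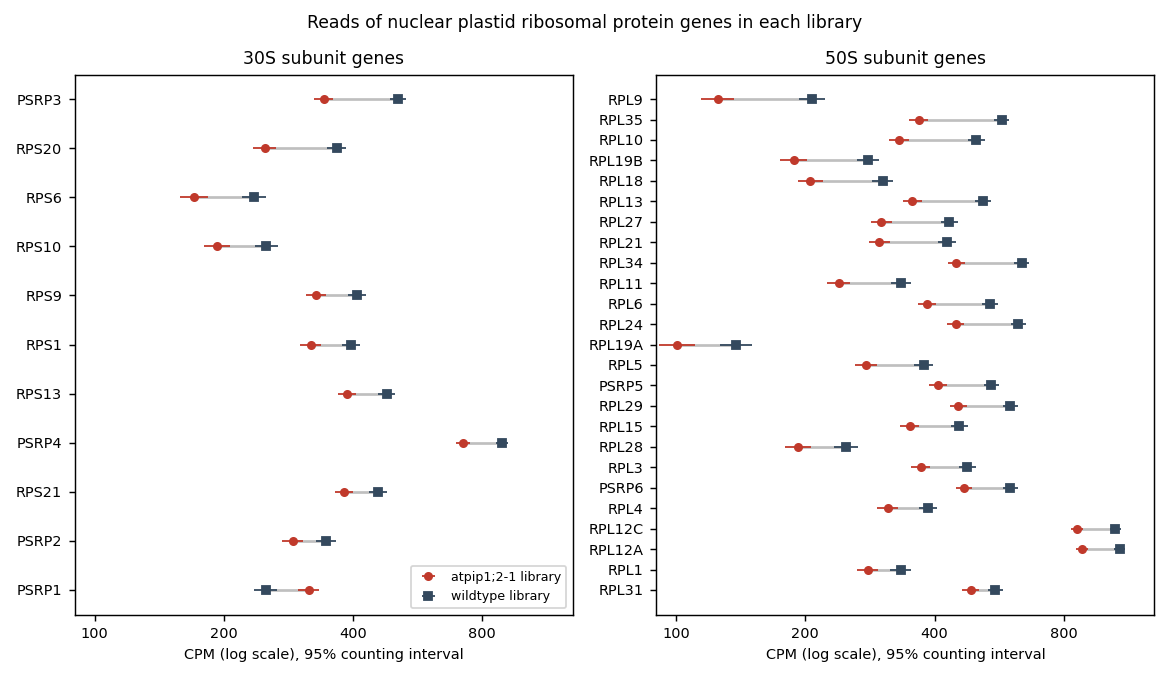
CPM of 36 of the genes (log scale) in the atpip1;2-1 library (red circles) and the wildtype library (dark squares), for 30S genes on the left and 50S genes on the right, with 95% counting intervals as bars. The red circle lies left of the dark square for every gene plotted except PSRP1, at the bottom of the left panel.

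The 37 lower genes lay close together. Their log2 ratios ran from -0.73 to -0.19 with an SD of 0.13 across genes, while the 1102 deeply read loci had an SD of 0.39. With PSRP1 included the SD was 0.18. The interquartile range of all 38 was 0.21 and that of the deeply read loci 0.49. Such closeness was not particular to this set. Among lists described below, the interquartile range was 0.17 for nuclear photosystem subunits, 0.24 for the cytosolic 60S, 0.27 for the cytosolic 40S and 0.39 for plastid translation and assembly factors. The intervals of all 37 lay wholly below 0. The gap between PSRP1 and the next gene, RPL31, was 0.52 on the log2 scale, nearly as wide as the 0.54 covered by the other 37.

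**Figure D2:**
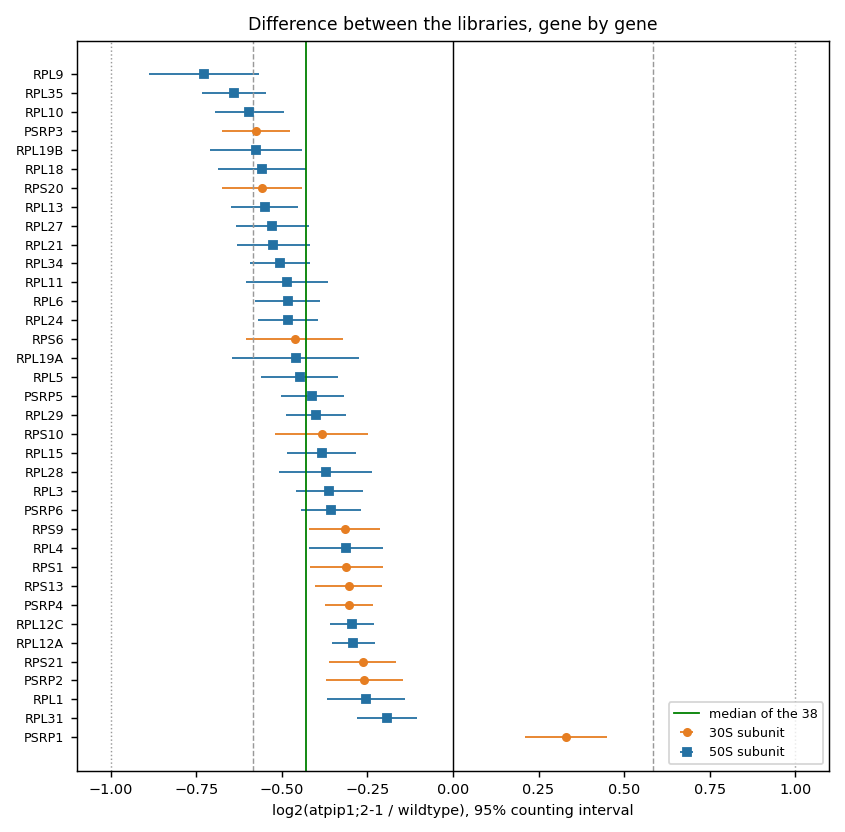
Log2 ratio of 36 of the genes (atpip1;2-1 over wildtype) with its 95% counting interval, for 30S genes (orange circles) and 50S genes (blue squares), sorted from lowest at the top. Dashed lines mark 1.5-fold, dotted lines 2-fold and the green line the median of all 38, -0.43; RPL9, RPL35 and RPL10 lie beyond the lower 1.5-fold line and PSRP1 is alone to the right of 0.

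The 50S genes held the 3 that passed the 1.5-fold rule. RPL9 (AT3G44890), whose bacterial counterpart reaches out from the base of the L1 stalk, had 518 reads in the mutant and 825 in the wildtype, or 125 CPM against 207 CPM (log2 ratio -0.73, -0.89 to -0.57; adjusted p = 5.01e-18, exact binomial test). RPL35 (AT2G24090), a small protein buried in the bacterial large subunit, had 1523 reads in the mutant and 2282 in the wildtype, or 368 CPM against 573 CPM (-0.64, -0.73 to -0.55). RPL10 (AT5G13510), the base of the flexible stalk that recruits translation factors, had 1372 reads in the mutant and 1992 in the wildtype, or 331 CPM against 500 CPM (-0.59, -0.70 to -0.49). The calls of RPL35 and RPL10 rested on the scaling: with total counts as library sizes only RPL9 remained past 1.5-fold, at -0.66. The 30S gene PSRP3, at -0.58, fell just short of the rule. Corrected for transcript length and GC content, PSRP3 passed it at -0.75, while RPL35 at -0.52 and RPL10 at -0.47 did not.

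The stalk proteins differed among themselves. RPL10 binds several copies of L12 in bacteria, and L11 forms the adjoining site where elongation factors act. RPL12A (AT3G27830) had 3655 reads in the mutant and 4299 in the wildtype, or 883 CPM against 1080 CPM (-0.29, -0.36 to -0.23), and had the most reads of the 50S genes. RPL12C (AT3G27850) had 3555 reads in the mutant and 4196 in the wildtype (-0.30, -0.36 to -0.23). These intervals do not overlap that of RPL10. RPL12A and RPL12C are close copies next to each other on chromosome 3, so the split of reads between them is uncertain; summed, they stood at 1741 CPM in the mutant and 2134 CPM in the wildtype (-0.29, -0.34 to -0.25). The third copy between them, RPL12B (AT3G27840), had 0 reads in both libraries. RPL11 (AT1G32990), with 990 reads in the mutant and 1332 in the wildtype, lay between RPL10 and RPL12 at -0.49.

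Proteins that in bacteria hold the 5S ribosomal RNA in the large subunit were both lower. RPL18 (AT1G48350) had 851 reads in the mutant and 1205 in the wildtype, or 205 CPM against 303 CPM (-0.56, -0.69 to -0.43). RPL5 (AT4G01310) had 1146 reads in the mutant and 1503 in the wildtype (-0.45, -0.56 to -0.34). Their intervals overlap.

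Genes for proteins around the peptide exit tunnel and the catalytic centre were lower to unequal extents. RPL27 (AT5G40950), whose bacterial counterpart reaches the peptidyl transferase centre, had 1244 reads in the mutant and 1724 in the wildtype (-0.53). RPL4 (AT1G07320), which lines the tunnel in bacteria, had 1287 reads in the mutant and 1537 in the wildtype (-0.31, -0.42 to -0.21). RPL29 (AT5G65220), at the mouth of the tunnel, had 1882 reads in the mutant and 2388 in the wildtype (-0.40). Of these 3 genes RPL27 was lowest, and the upper end of its interval lies just below the lower end of that of RPL4.

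RPL3 and RPL24 start the assembly of the large subunit in Escherichia coli. RPL24 (AT5G54600) had 1857 reads in the mutant and 2494 in the wildtype (-0.48), and RPL3 (AT2G43030) had 1536 reads in the mutant and 1897 in the wildtype (-0.36). RPL15 (AT3G25920), another rRNA-binding protein, had 1449 reads in the mutant and 1817 in the wildtype (-0.38). All 3 were lower, with overlapping intervals.

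RPL19, a protein of the face between the subunits in bacteria, is encoded by a pair of genes that both gave reads. RPL19B (AT5G47190) had 778 reads in the mutant and 1115 in the wildtype, or 188 CPM against 280 CPM (-0.58, -0.71 to -0.44). RPL19A (AT4G17560), with 416 reads in the mutant and 550 in the wildtype, had the fewest reads of all 38 and so the widest interval (-0.46, -0.65 to -0.27). The copies did not differ beyond their intervals, and together they stood at 68.9% of the wildtype level (63.9% to 74.3%).

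The 50S genes with the smallest decrease were RPL31 and RPL1. RPL31 (AT1G75350), a small peripheral protein, had 2009 reads in the mutant and 2207 in the wildtype, or 485 CPM against 554 CPM (-0.19, -0.28 to -0.10; adjusted p = 2.52e-04, exact binomial test). RPL1 (AT3G63490), the protein of the mobile L1 stalk near the exit site of tRNA, had 1157 reads in the mutant and 1327 in the wildtype, or 279 CPM against 333 CPM (-0.25, -0.37 to -0.14). Once transcript length and GC content were corrected for, RPL31 stood at -0.026 and was no longer lower. The other 50S genes of bacterial type, RPL6, RPL13, RPL21, RPL28 and RPL34, had log2 ratios of -0.48, -0.55, -0.52, -0.37 and -0.51. The 50S genes ranged from 416 to 3655 reads in the mutant and from 550 to 4299 in the wildtype.

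Among the 30S genes, the largest decrease was that of PSRP3 (AT1G68590), a plastid-specific protein also known as Ycf65 in algae whose plastids encode it. It had 1414 reads in the mutant and 2027 in the wildtype, or 341 CPM against 509 CPM (-0.58, -0.68 to -0.48). RPS20 (AT3G15190), which binds 16S rRNA early in bacterial assembly, had 1031 reads in the mutant and 1459 in the wildtype (-0.56, -0.67 to -0.44). The intervals of PSRP3 and RPS20 overlap.

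Proteins of the mRNA and tRNA path were less reduced than these. RPS1 (AT5G30510), the mRNA-binding protein, had 1319 reads in the mutant and 1574 in the wildtype (-0.31, -0.42 to -0.21). RPS9 (AT1G74970) and RPS13 (AT5G14320), whose tails touch the tRNA in the bacterial P site, had near-equal log2 ratios of -0.32 and -0.31. RPS9 had 1361 reads in the mutant and 1630 in the wildtype, and RPS13 had 1607 reads in the mutant and 1909 in the wildtype.

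RPS6, a partner of S18 on the platform of the bacterial subunit, had 707 reads in the mutant and 937 in the wildtype (-0.46). RPS10 had 798 reads in the mutant and 1001 in the wildtype (-0.38). RPS21 (AT3G27160, also GHS1) had 1577 reads in the mutant and 1820 in the wildtype, or 381 CPM against 457 CPM (-0.26, -0.36 to -0.17). RPS21 was among the least reduced genes of the 38.

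The plastid-specific proteins ran from -0.58 for PSRP3 to 0.33 for PSRP1. After PSRP3 came PSRP5, PSRP6 and PSRP4, at -0.41, -0.36 and -0.30. PSRP4 (AT2G38140) had the most reads of the 30S genes, 2986 in the mutant and 3544 in the wildtype, or 721 CPM against 890 CPM (-0.30, -0.37 to -0.23). PSRP2 (AT3G52150), which carries RNA-binding domains of the RRM type, had 1200 reads in the mutant and 1381 in the wildtype, or 290 CPM against 347 CPM (-0.26, -0.37 to -0.15). It lay near the weaker end of the decrease.

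PSRP1 (AT5G24490) was the only gene of the 38 with more reads in the mutant. It had 1306 reads in the mutant and 998 in the wildtype, or 315 CPM against 251 CPM (log2 ratio 0.33, 0.21 to 0.45; adjusted p = 1.10e-06, exact binomial test). PSRP1 is the plastid relative of the bacterial hibernation factors, which bind the decoding region of the small subunit and hold ribosomes inactive, and it is not regarded as a structural subunit. Its log2 ratio stayed positive under every scaling tried, from 0.28 with housekeeping genes as the scale to 0.40 with a length and GC correction, and it did not reach 1.5-fold in any of them. PSRP1 is single in these data and was picked out after its value had been seen.

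By subunit, the 13 genes of the 30S had a median log2 ratio of -0.32 and the 25 of the 50S one of -0.46. Without PSRP1 the 30S median was -0.35. In summed reads, the 30S genes stood at 78.2% of the wildtype level (76.7% to 79.7%) and the 50S genes at 74.7% (73.7% to 75.7%). Without PSRP1 the 30S sum was 76.1% (74.6% to 77.6%), with an interval that overlaps that of the 50S. The 8 genes that the annotation names as embryo-defective, a class whose loss blocks seed development, had a median of -0.48 and the other 30 one of -0.41.

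Of the genes, 12 lie on chromosome 1, 5 on chromosome 2, 10 on chromosome 3, 2 on chromosome 4 and 9 on chromosome 5. Distances between them were not measured, and RPL12A and RPL12C are neighbours. The regions around their starts were searched, on both strands, for short motifs often found before plant genes of translation and photosynthesis. Each region was the 300 bases from 250 before to 50 after the annotated start, so a match can lie after the start. The site II element, in the forms TGGGCC or TGGGCT, was present in this region for 18 of the 38 genes (47.4%). It was present for 27.5% of the loci tested and 21.7% of all 27443 nuclear protein-coding genes. By subunit it was found in this region for 10 of 13 genes of the 30S and 8 of 25 of the 50S. The shares were 70.0% for the cytosolic 40S list and 87.0% for the cytosolic 60S list, and 4 of 21 genes of the nuclear photosystem list held it.

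The telo box, AAACCCTA, was found before 5 of the 38 genes (13.2%) and before 5.62% of the loci tested, and before 40 of 80 genes of the cytosolic 40S list. CCAATC, a motif bound by GLK factors of chloroplast development, was found there for 13.2% of the 38 genes and 13.1% of the loci tested. The G-box CACGTG was found there for 10.5% of the 38 genes, 8.88% of the loci tested and 47.6% of the nuclear photosystem list. Genes with a site II element had a median log2 ratio of -0.46 and those without one of -0.39. A match of letters is a description of the sequence and does not show a bound site.

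To show what these elements look like, 30-base windows around 1 match are given for 4 genes from either side of the median. They are read 5' to 3' on the strand of the gene, with only that match in capitals (AGCCCA is site II on the opposite strand). They come from RefSeq annotation TAIR10.1, matched by locus, and no coordinates are given because the reads were counted on another build. The matches in capitals lie 40 to 45 bases before the annotated start in RPL19B, 20 to 25 in RPL6, 37 to 42 in RPS9 and 27 to 32 in PSRP4. The window of RPS9 also holds a TGGGCT match, left in lower case, 47 to 52 bases before the start.
RPL19B: atcaattgaataTGGGCCtaaatgtctagg
RPL6: atagtgagctaaTGGGCCgtgaaagtaatg
RPS9: aatgggctctaaTGGGCCgattcaataagt
PSRP4: ggctttaaaataAGCCCAattgaaattaaa
RPL19B and RPL6 stood at log2 ratios of -0.58 and -0.48, and RPS9 and PSRP4 at -0.32 and -0.30, so genes on either side of the median carry the element. RPL9, RPL35, RPL10 and PSRP1 held no site II element in the 250 bases before their starts.

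Most further genes of plastid translation were lower too. Of 17 genes for plastid translation and ribosome assembly factors, 5 were lower at 1.5-fold (29.4%), 2 at 2-fold (11.8%) and 0 higher, with a median log2 ratio of -0.47. Among all loci tested 3.96% were lower at 1.5-fold and 1.1% at 2-fold. With no fold threshold 12 of the 17 were lower (70.6%), against 8.38% of all loci tested, and 1 of the 17 had a positive log2 ratio. EF-Tu (AT4G20360), the plastid elongation factor that delivers tRNA, had 3170 reads in the mutant and 4226 in the wildtype (-0.47, -0.54 to -0.40). EF-G (AT1G62750), which moves the ribosome along, had 1292 reads in the mutant and 1571 in the wildtype (-0.34).

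The farthest from 0 were RH22 (AT1G59990), an RNA helicase of 50S assembly, with 41 reads in the mutant and 91 in the wildtype (-1.21, -1.78 to -0.66), and OBGC (AT5G18570), a GTPase of plastid ribosome assembly, with 33 reads in the mutant and 65 in the wildtype (-1.03, -1.69 to -0.41). Both were counted far less than any of the 38 genes. The reference table did not name 1 of the 17 loci (AT2G33430).

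The nuclear plastid ribosomal proteins outside the 38 lay in the same range. RPL17 (AT3G54210) had 2092 reads in the mutant and 2775 in the wildtype (-0.46, -0.55 to -0.38). PSRP3/2 (AT5G15760), the second PSRP3 copy, had 43 reads in the mutant and 63 in the wildtype (-0.61, -1.20 to -0.03) and was not lower after adjustment.

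The chloroplast genome carries the rest of the ribosome's proteins. Of 26 chloroplast loci listed for comparison, whose IDs the reference table did not pair with names, 20 had enough reads, 1 was lower and 1 higher at 1.5-fold, and the median log2 ratio was -0.04, which ranged from -0.13 with a minimum of 100 reads to 0.036 under another scaling. ATCG01020 had 8095 reads in the mutant and 5183 in the wildtype (0.59), and ATCG00160 had 58 reads in the mutant and 93 in the wildtype (-0.74). Some of these loci are copies in the inverted repeat with identical counts, so the 20 are not all separate. How fully libraries of transcript 3' ends sample chloroplast transcripts was not tested, so the median may not reflect the levels of these RNAs.

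Beside the cytosolic ribosome, the plastid set was less reduced by its median. The cytosolic 40S list had a median of -0.64 over 77 tested genes, with 46 lower at 1.5-fold (59.7%), and the cytosolic 60S list (L3 to L19) had -0.67 over 52, with 36 lower (69.2%). Among all loci tested 3.96% were lower by that rule. S9 of the 40S (AT5G15200) had 1767 reads in the mutant and 2892 in the wildtype (-0.77), and L10 of the 60S (AT1G14320) had 1541 reads in the mutant and 2510 in the wildtype (-0.76). Of the 38 plastid genes, RPL9 at -0.73 was the only one below the 60S median.

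Nuclear genes for other imported plastid proteins gave mixed values. For subunits of the photosystems, the median log2 ratio was 0.01 over 21 genes, 0 were lower or higher at 1.5-fold, and 9 were negative. PSBR had 41081 reads in the mutant and 37550 in the wildtype (0.07), and PSBQ1, the lowest of the 21, had 5823 reads in the mutant and 7200 in the wildtype (-0.36). Of the 6 mesophyll markers, which also encode imported plastid proteins, 4 were lower and 1 higher with no fold threshold, with a median of -0.24. By that rule 46.8% of the 1102 deeply read loci were lower and 18.7% higher. The carbonic anhydrase gene BCA1 had 11594 reads in the mutant and 14762 in the wildtype (-0.41), and RCA, for the activase of Rubisco, had 27409 reads in the mutant and 32682 in the wildtype (-0.31). RBCS1A, for the small subunit of Rubisco, had 74205 reads in the mutant and 92072 in the wildtype (-0.37), and belongs to a family of close copies whose reads may be split. The values of BCA1, RCA and RBCS1A lie within the range of the 37 lower plastid ribosomal protein genes. The other markers lay above it. RBCS3B, also for the small subunit of Rubisco, stood at -0.16 and the light-harvesting gene LHCB1.3 at -0.01. LHCB2.1, a further light-harvesting gene, had 28837 reads in the mutant and 22995 in the wildtype (0.27). The differences between lists were not tested, since 1 library per genotype gives no error for them.

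**Figure D3:**
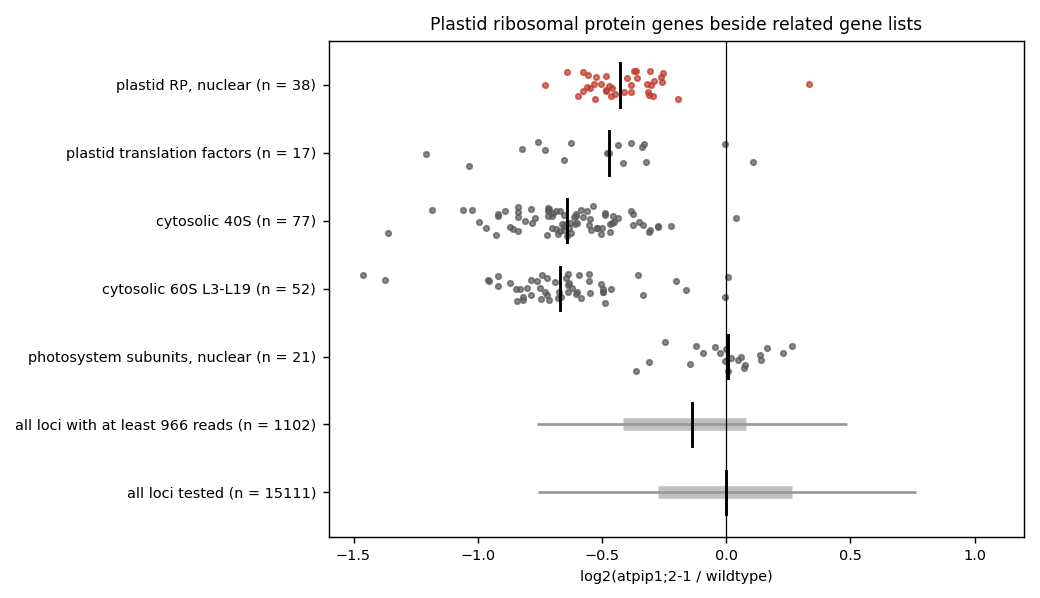
Log2 ratios (atpip1;2-1 over wildtype) of the 38 plastid ribosomal protein genes (red) and of related lists (grey points), with black ticks at the medians; for the bottom 2 rows thick bars span the interquartile range and thin bars the range from the 5th to the 95th percentile. The red points cluster around -0.43 with PSRP1 apart at 0.33, between the photosystem genes near 0 and the cytosolic ribosomal genes near -0.65.

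Marker genes of dividing cells had lower counts in the mutant too. All 8 had fewer reads in the mutant, from 1 against 2 reads for CYCB1;1 to 38 against 50 for PCNA2, and their sum was 144 reads in the mutant and 207 in the wildtype (log2 ratio -0.58, -0.90 to -0.27). Of the 6 with enough reads, 0 passed the exact binomial test after adjustment. The part of dividing cells in the values above was not tested. Guard cell markers had 128 reads in the mutant and 132 in the wildtype over 3 genes, and the phloem gene SUC2 had 695 reads in the mutant and 748 in the wildtype.

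The choice of scale moved the size of the decrease. The median of the 38 genes ran from -0.36 with total counts to -0.48 with housekeeping genes as the scale, and 37 genes were negative under each. A change of scale shifted all genes alike, by at most 0.072, which was too little to change the sign of any of the 38. The transcripts of the set are shorter than most, with a median of 1009 bases against 1747 for the loci tested. Corrected for length and GC content, the median of the set was -0.35.

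**Figure D4:**
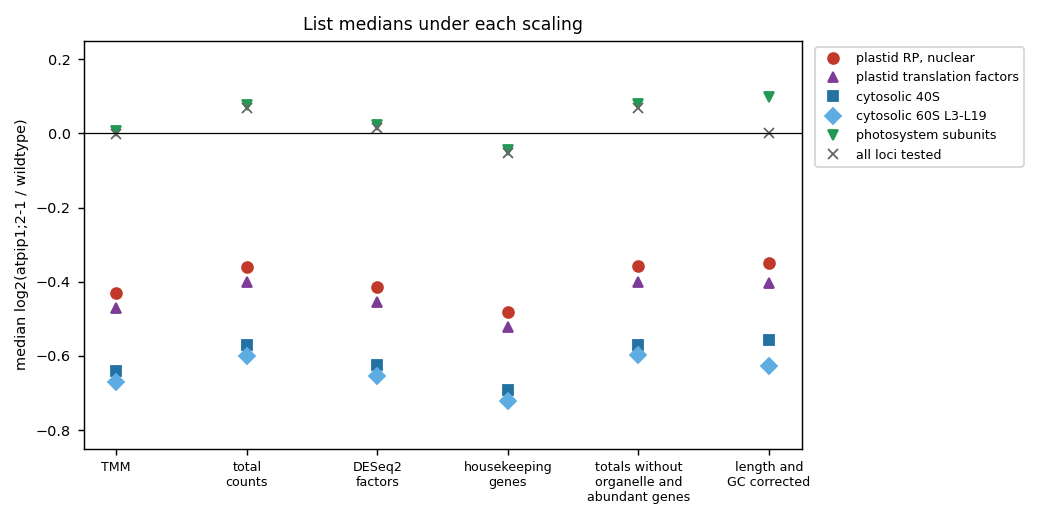
Median log2 ratio (atpip1;2-1 over wildtype) of each list under 5 ways to scale the libraries and with a correction for length and GC content of transcripts. The plastid ribosomal protein genes (red circles) stay between -0.48 and -0.35, above both cytosolic ribosomal lists and below the photosystem genes in each column.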

How the data were processed

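The authors deposited raw read counts, whole numbers for each locus, in 1 file per genotype. Per the labels' protocols, RNA was extracted from leaves of 10 plants per genotype (3 weeks old), and a company built 3' UTR cDNA libraries and sequenced them on a Genome Analyzer II. Per the submitters' processing notes, the genome build was TAIR9. How reads were aligned and counted, with strand or without, and what became of reads with several matches were not given in the sources used here. One locus listed more than once with the same count was kept once.

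Library sizes were scaled by TMM factors (1.02 for atpip1;2-1 and 0.976 for the wildtype; edgeR 4.0.16, R 4.3.3). With 1 library per genotype edgeR's quasi-likelihood test could not be fitted. Each of the 15111 loci with at least 20 reads over both libraries was tested with an exact binomial test of its reads (two-sided) and Benjamini-Hochberg adjustment over all of them, with 95% Clopper-Pearson intervals of the ratio and exact Poisson intervals of CPM. A locus was called at an adjusted p under 0.05 and 2-fold or 1.5-fold. The test compares 2 libraries, not genotypes, and reads without molecular identifiers are not independent molecules. A count of 0 was taken to allow up to 3 reads. The rule was run on simulated counts that varied by counting error only, as the test assumes. The simulation therefore could not show false calls from variation between plants. The genes and lists were chosen with earlier results of these data known. All 38 genes enter the counts, medians and sums, and 2 of them are not reported here by name. Full statistics were given for the 6 lowest and 4 highest log2 ratios and the gene with the most reads in each subunit, and for further genes chosen by their role. From each other list, genes with the most reads or the largest difference were named. Marker lists covered mesophyll, guard cell, phloem, dividing cell, root, flower and seed genes; the root gene PYK10 had 15 reads in atpip1;2-1 and 10 in the wildtype, and the floral gene AG had 0 reads in atpip1;2-1 and 2 in the wildtype. Names, transcript lengths, GC content and upstream sequence came from RefSeq TAIR10.1 by locus tag (all 38 genes matched). Computation used Python 3.11.15, numpy 2.4.6, scipy 1.17.1, pandas 2.3.3 and matplotlib 3.10.9. Alternatives changed the scaling (total counts, DESeq2 1.42.0 size factors, 11 housekeeping genes, totals leaving out organelle loci and the 20 loci with most reads), read minimum, depth, fold and test, or corrected for transcript length and GC content.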

Additional observations from a re-analysis of the deposited data

How the results depend on the processing

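Of the 38 genes, 37 were negative and PSRP1 positive under each of the 7 alternatives run gene by gene. The edgeR test reused the main ratios, so its signs could not differ. The changes of scale shifted all genes alike, by at most 0.072. RPL31, the gene nearest 0, stood at -0.19, so these shifts could not change a sign either. The count lower at any fold, 37, was 36 after correction for length and GC content (RPL31 at -0.026) and 0 in edgeR's exact test when a coefficient of variation of 0.2 between replicates was assumed. The same test gave 0 genes lower at 1.5-fold, against 3 in the exact binomial test. Of all 15111 loci, edgeR's test called only 3 lower, at any fold and at 1.5-fold alike. The 3 genes lower at 1.5-fold became 1 with total counts or with totals without organelle and abundant genes, and 8 with housekeeping genes. They became 2 with DESeq2 factors or with the length and GC correction. The background moved too. Of all 15111 loci, 599 were lower at 1.5-fold by the main scaling, 452 with either kind of totals and 750 with housekeeping genes. With DESeq2 factors 553 were lower, and with the length and GC correction 551. The count of 0 at 2-fold became 3 when the rule was set to 1.5-fold. The median log2 ratio of -0.43 became -0.36 with total counts, -0.41 with DESeq2 factors, -0.48 with housekeeping genes, -0.36 (-0.358) with totals without organelle and abundant genes and -0.35 with the length and GC correction; the first 4 are constant shifts of all loci. The chloroplast loci, at -0.04, turned to 0.034 with total counts and 0.036 with totals without organelle and abundant genes, and went to -0.057 with a minimum of 10 reads or none and -0.13 with one of 100. Read minimums of 10, 100 or none and thinning of the deeper library left the counts of 0, 3 and 37 as they were. These were weak checks. Each of the 38 genes had at least 966 reads, so no such minimum could drop one. The thinning only took the wildtype library from 4079098 reads to 4041759. No paired analysis was possible because each genotype has 1 library, and no replicate could be left out. At this depth the 95% intervals of single genes reached 0.064 to 0.187 to either side on the log2 scale, and variation between plants was not measured.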

Other observations

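A second bacterial-type ribosome, that of mitochondria, was covered by 9 nuclear genes whose product name says mitochondrial ribosomal protein, a list made after the values had been seen. Of these, 7 had enough reads, 5 were negative and the median log2 ratio was -0.26. The exact binomial test called 0 of them lower or higher at any fold after adjustment. Lowest was AT1G16870, with 27 reads in atpip1;2-1 and 47 in the wildtype (-0.86). AT3G59650 followed, with 40 reads in atpip1;2-1 and 64 in the wildtype (-0.74). The intervals of both lay below 0, each with an upper end of -0.14. The genes with the most reads lay nearer 0. The L11 gene AT4G35490 had 166 reads in atpip1;2-1 and 173 in the wildtype (-0.12). The L37 gene AT3G01740 had 242 reads in atpip1;2-1 and 212 in the wildtype (0.13). The summed reads of the 9 genes were 628 in atpip1;2-1 and 668 in the wildtype. Those of the plastid genes were 57042 in atpip1;2-1 and 72324 in the wildtype, so the mitochondrial values are less precise.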
